A study of Homo sapiens with 11 samples.

Results

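CTCF sites were described at 36 genes of the p53 network and of apoptosis in a p53-/- derivative of HCT116, an established human colon cancer cell line. The genes were taken from a list of p53 relatives, regulators, targets and apoptosis proteins, and stand beside 19970 protein-coding genes of chromosomes 1 to 22 and X. A CTCF site counted for a gene when its summit, the single base of highest signal in a peak, lay inside the gene body or within 10 kb of it on hg38. In what follows, below and above a gene mean lower and higher coordinates, and before and after a start follow its strand. No window of a member overlapped that of another.

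CTCF was mapped by CUT&RUN, a method that cuts out and sequences the DNA next to an antibody's target. All groups lacked p53. ORC2 deletion cells were 1 clone made with CRISPR/Cas9 from the p53-/- line, ORC2 rescue cells were clones of them that carried ORC2 on a plasmid, and WT cells were the p53-/- line itself. ORC2 is a subunit of the origin recognition complex. Each group had 2 CTCF libraries, and 1 summit list was deposited per group, with 31112 summits in ORC2 deletion, 20810 in rescue and 19044 in WT. IgG lists, the background made without CTCF antibody, held 34, 33 and 17 summits in deletion, rescue and WT. The rescue IgG list came from 1 library, and the other groups had 2 IgG libraries each. The IgG lists had 0 summits in the 36 windows, and the nearest lay 265.2 kb from one. Because a genotype has only 1 list, the spread between replicates is not known for any difference. The depth of the libraries is unknown, and fewer bound cells cannot be told apart from less binding per cell.

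The p53 protein is a transcription factor that is kept low by MDM2 and MDM4 and is stabilised after DNA damage. It then switches on genes of cell cycle arrest, repair, antioxidant defence and apoptosis. In the intrinsic path of apoptosis, BH3-only proteins free BAX and BAK1 to open the mitochondrial outer membrane, and released cytochrome c lets APAF1 activate CASP9. In the extrinsic path, death receptors activate CASP8. CTCF is a zinc finger protein that, with cohesin, sets the ends of chromatin loops and can lie at or near promoters. In these cells the targets are present without their main activator.

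A CTCF summit was found at 27 of the 36 genes in the ORC2 deletion list, at 24 in the rescue list and at 22 in the WT list. These were 75%, 66.7% and 61.1% of the members. Of all protein-coding genes, 63.7% had a deletion summit, 52% a rescue summit and 50.5% a WT summit. At least 1 of the lists had a summit at 29 members, 80.6% against 67.1% of all protein-coding genes. These shares are not matched for window length. With windows under 50 kb it was 9 of 16 members, 56.2% against 57.1% of protein-coding genes of that class. With 50 to 100 kb it was 15 of 15 members, against 73.6%, and with over 100 kb 5 of 5, against 86.7%. The windows of the members held 58 deletion, 43 rescue and 38 WT summits. Deletion over WT was thus 1.53 at the members, against 1.64 over the merged windows of all protein-coding genes and 1.63 over the whole lists. Rescue over WT was 1.13 at the members and 1.10 over the windows of all protein-coding genes. The excess of deletion over WT summits at the members was about as large as the difference in list length. With lists of equal length the members held 36 deletion and 38 WT summits, a ratio of 0.947.

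Summits were denser at the members than at protein-coding genes as a whole in each of the 3 lists. The windows of the members held 24.2 deletion, 17.9 rescue and 15.9 WT summits per Mb. Those of all protein-coding genes held 14.4, 9.63 and 8.79 per Mb in the same order. No test was made of this difference, and the densities are not matched for window length. The median −log10 q, the peak caller's confidence in a summit, was 8.38 in deletion, 7.26 in rescue and 6.99 in WT at the members. Over the whole lists it was 8.06, 6.58 and 6.18. These values were not scaled between lists here, so they order summits within a list only.

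**Figure D1:**
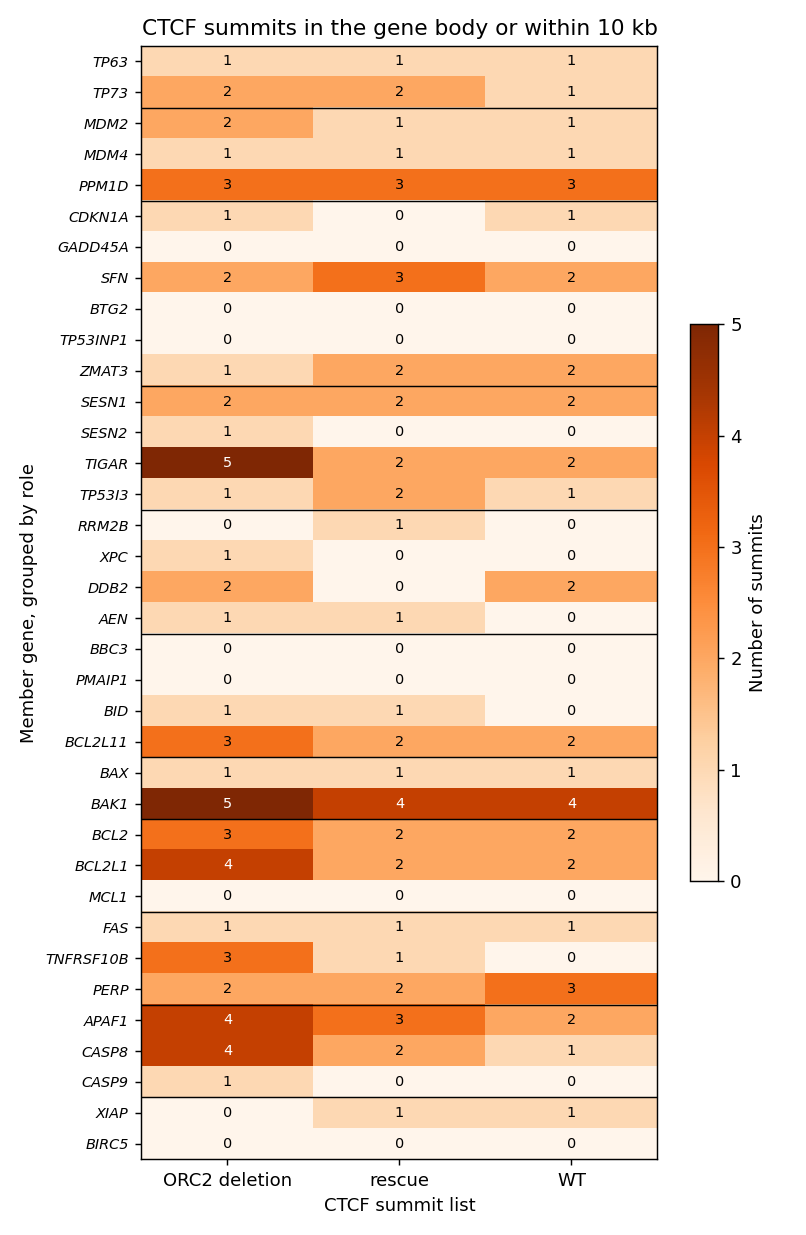
Number of CTCF summits inside each of the 36 genes or within 10 kb of it (rows, grouped by role with black lines between groups) in the ORC2 deletion, rescue and WT lists (columns). BAK1 and TIGAR have 5 deletion summits each, and 7 genes have none in any list.

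Joining summits that lay within 500 bp of each other gave 65 sites. All 3 lists held 29 of them, deletion and rescue 10, deletion alone 15, deletion and WT 5, rescue alone 2, rescue and WT 2, and WT alone 2. Sites in all 3 lists were 44.6% of the member sites (95% Wilson interval 33.2 to 56.7), against 40.6% of the 34769 sites of the whole lists. Deletion-only sites were 23.1% (14.5 to 34.6), against 27.3%. In sites of all 3 lists the outermost summits lay 21 to 368 bp apart, with a median of 70 bp.

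**Figure D2:**
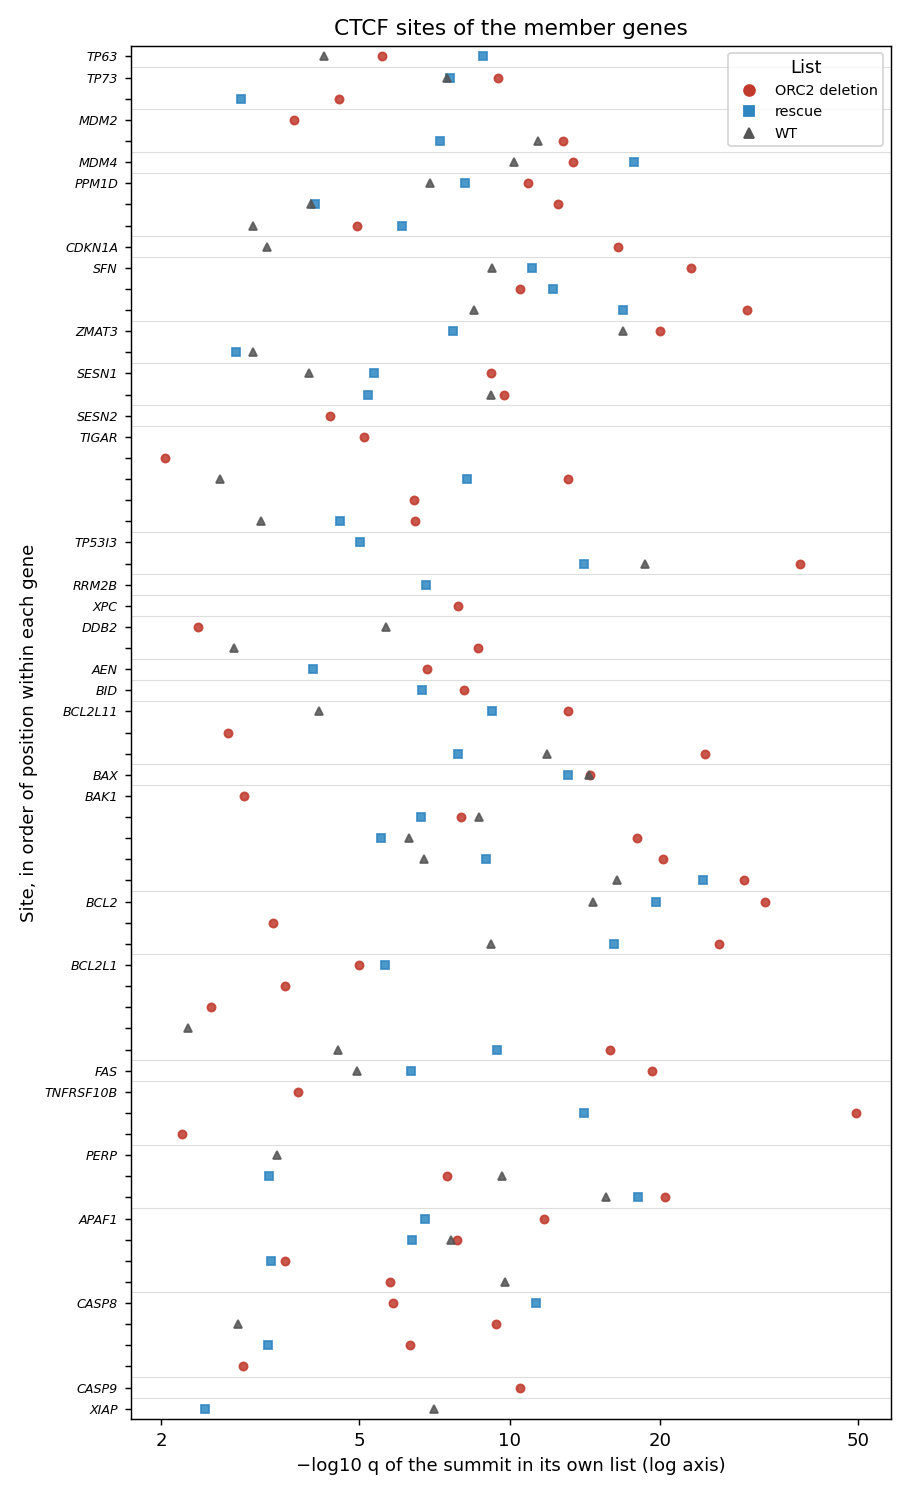
The −log10 q of each of the 65 sites (rows, in order of position within each gene) in the ORC2 deletion list (circles), the rescue list (squares) and the WT list (triangles), on a log axis. Values are each list's own and were not scaled between lists here, and a missing mark means that the list has no summit at the site. Deletion-only sites lie between 2.04 and 10.5, and the highest value, 49.5, belongs to a site below TNFRSF10B.

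The p53 relatives TP63, which maintains stratified epithelia, and TP73, which acts in neural and ciliated cells, had 3 sites. In TP63 all lists shared 1 site inside the gene, at 189786769 on chromosome 3 in deletion (−log10 q 5.54), 189786718 in rescue (8.86) and 189786968 in WT (4.24). TP73 shared 1 site too, with values of 9.48 in deletion, 7.6 in rescue and 7.49 in WT. A second TP73 site, 26503 bp into the gene from the nearest listed start, was called in deletion (3724549, 4.56) and rescue (3724552, 2.9) and not in WT. The summits of this pair lay 3 bp apart.

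Of the p53 inhibitors, PPM1D, a phosphatase that reverses damage signalling, had 3 sites, each in all 3 lists. Its values were 10.9, 12.5 and 4.94 in deletion, 8.14, 4.08 and 6.09 in rescue, and 6.92, 3.99 and 3.06 in WT. MDM4, which binds the activation domain of p53, had 1 site 7793 bp above the gene in all lists, with 13.4 in deletion, 17.8 in rescue and 10.2 in WT. MDM2, the ubiquitin ligase of p53, held an intragenic site in all lists with 12.8 in deletion, 7.26 in rescue and 11.4 in WT. It had a second summit in deletion alone, 344 bp before the start of the gene at 68807828 on chromosome 12, with a value of 3.7. That value is higher than 14.9% of the deletion list, so this promoter summit stands among the weaker calls of the list.

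Arrest genes differed in the number of CTCF summits called. CDKN1A, encoding the cyclin-dependent kinase inhibitor p21, had 1 summit inside the gene in deletion (36680720 on chromosome 6, 16.5) and in WT (36680814, 3.26) and none in rescue. SFN, encoding the checkpoint protein 14-3-3 sigma, had a summit 442 bp before its start in deletion (30), 362 bp before it in rescue (16.9) and 438 bp before it in WT (8.5). The deletion value is higher than 96% of that list. A second SFN site, 1709 bp before the start, was called in deletion (10.5) and rescue (12.2) and not in WT. The farthest SFN site straddled the edge of the window, with the deletion summit 10028 bp outside the gene, the rescue summit 9965 bp and the WT summit 9794 bp. The deletion summit of this site lay inside ZDHHC18 and is not among the 58. ZMAT3, an RNA-binding zinc finger protein, had a shared site 1636 bp below the gene, with 20 in deletion, 7.71 in rescue and 16.9 in WT. GADD45A, BTG2 and TP53INP1, a stress sensor, a cofactor of RNA deadenylation and a regulator of autophagy, had no summit within 10 kb.

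ZMAT3 also held 1 of the 2 sites of the authors' down list among the members, in which deletion had no summit and rescue and WT had one. It lay close to a listed start inside the gene, at 179069240 in rescue (2.83) and 179069482 in WT (3.06). Both values belong to the weak end of their lists, higher than 9.61% and 14.1% of them. The 30 bases around the WT summit are shown because they fall in a RefSeq promoter of GRCh38.p14 at chr3:179069468-179069497 on the minus strand, with the summit base in capitals.
ZMAT3, WT summit: agagaagaggttttaAtaatactgtattga

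The stress and metabolic targets carried 10 sites, 4 of them in deletion alone, a class with 27.3% of the sites of the whole lists. TIGAR, a phosphatase that lowers glycolytic flux, had 5 deletion summits against 2 in rescue and 2 in WT. Of these, 2 were shared by all lists, at 4354104 (13.1) and 4366248 (6.46) on chromosome 12 in deletion. The other 3 were in deletion alone, 418 bp before the start at 4320795 (5.1), at 4329060 (2.04) and at 4356214 (6.42), and each lay in an up region of the authors. No other member held as many up sites as TIGAR. With lists of equal length, TIGAR was not among the members with a gained site. SESN2, a sestrin that restrains mTORC1, had 1 summit, in deletion alone, 4008 bp before its start (4.36). A site 10993 bp outside SESN2 in deletion (23.6), 10774 bp in rescue (9.02) and 10760 bp in WT (8.19) was just beyond the window. TP53I3, a quinone oxidoreductase, had a site 205 bp after its start that also lay inside FAM228B. The values of this site were 38.2 in deletion, 14.1 in rescue and 18.7 in WT, higher than 97.9%, 86.1% and 94.7% of their lists. The deletion and WT summits lay 1 bp apart, at 24084629 and 24084628 on chromosome 2. A rescue summit 771 bp after the start (5.01), also inside FAM228B, had no partner within 500 bp in the other lists. The matching distance decided this, since the nearest deletion summit lay 566 bp away and the nearest WT summit 565 bp.

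SESN1, the paralog of SESN2, had 2 sites, both in all 3 lists. The first lay inside the gene and inside ARMC2, 192 bp before a listed start in deletion (109009744, 9.18), with rescue and WT summits at 109009714 (5.34) and 109009715 (3.97), 1 bp apart. The second, inside the gene at 109073758 in deletion, had 9.75 in deletion, 5.21 in rescue and 9.17 in WT. The sequences at the first site are shown because the 3 summits fall in 1 RefSeq promoter within 30 bp of each other. They lie at chr6:109009730-109009759 and chr6:109009701-109009730 on the minus strand, and capitals mark the summit bases.
SESN1, deletion summit: attagctgttcgtggGgaacctgggccccc
SESN1, rescue and WT summits: caaggtgatttttcaCCtcgccgcgtcaga

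None of the 5 sites at the 4 repair genes was in all 3 lists, a class with 40.6% of the sites of the whole lists. So few sites do not set the group apart. XPC, which recognises helix-distorting lesions, had 1 summit in deletion alone, at 14148820 on chromosome 3 (7.87), and AEN, an apoptosis-enhancing nuclease, had 1 in deletion (88614804, 6.83) and rescue (88614878, 4.03). DDB2, a sensor of ultraviolet damage, had 2 sites in deletion and WT and none in rescue. Its values were 2.37 and 8.64 in deletion and 5.65 and 2.8 in WT. The second DDB2 site lay 9825 bp above the gene in deletion, inside NR1H3 and 147 bp from a start of that gene, the only one of the 61 member sites measured that lay within 1 kb of a listed start of another gene. RRM2B, the p53-induced subunit of ribonucleotide reductase, had 1 summit in rescue alone, 6943 bp below the gene (6.81).

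Among BH3-only genes, BCL2L11, encoding BIM, had 3 deletion, 2 rescue and 2 WT summits. Its shared sites had values of 13.1 and 24.6 in deletion, 9.24 and 7.89 in rescue, and 4.14 and 11.9 in WT. The first of these lay before the start of BCL2L11 and inside ACOXL. The third, in deletion alone, was weak (111128633 on chromosome 2, 2.72). BID, which caspase-8 cleaves to link both paths, had a site in deletion (17742629 on chromosome 22, 8.11) and rescue (17742595, 6.67) and none in WT. BBC3 and PMAIP1, encoding PUMA and NOXA, had no summit in their windows. For BBC3 the window decided this, since all lists had a summit just beyond it, 10093 bp outside the gene in deletion (17.3), 10073 bp in rescue (14.6) and 10171 bp in WT (15.7). The nearest summits to PMAIP1 lay 59.6 kb away in deletion, 62.4 kb in rescue and 62.3 kb in WT.

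The pore formers BAX and BAK1 had 6 sites, 5 of them in all lists, a class with 40.6% of the sites of the whole lists. BAX had 1 site 9399 bp above the gene in deletion, inside GYS1, with values of 14.5 in deletion, 13.1 in rescue and 14.4 in WT. BAK1 had the most sites shared by all lists among the members. Its promoter site had a deletion summit 26 bp before the start (33580302 on chromosome 6, 7.99), a rescue summit 28 bp before it (33580304, 6.65) and a WT summit 81 bp before it (33580357, 8.7). The other shared BAK1 sites lay upstream, 3538, 5573 and 9638 bp before the start in deletion, with deletion values of 18, 20.3 and 29.5, rescue values of 5.53, 8.98 and 24.4 and WT values of 6.29, 6.74 and 16.4. A further BAK1 summit, 1402 bp below the gene, was in deletion alone (2.93) and in an up region. The promoter sequences are shown because BAK1 was the only member with summits of all 3 lists within 100 bp of a listed start. They lie at chr6:33580289-33580318 and chr6:33580343-33580372 on the minus strand, and capitals mark the summit bases.
BAK1, deletion and rescue summits: caccctacaggctgTcGgcctgtgcgtctg
BAK1, WT summit: aggtggggtggggaaAgtgggcgggacatg

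BCL2, the founding inhibitor of apoptosis of its family, had 2 sites in all 3 lists. The site 3580 bp before its start had 26.3 in deletion, 16.2 in rescue and 9.17 in WT, and the one inside the gene, at 63155489 on chromosome 18 in deletion, had 32.5, 19.7 and 14.7 in the same order. Between them lay a weak deletion-only summit (3.35). BCL2L1, encoding BCL-XL, had 4 deletion summits against 2 in rescue and 2 in WT, and 2 of the 4 were up sites with values of 3.55 and 2.52. MCL1 had no summit within 10 kb. The nearest lay 13.4 kb outside it in deletion, 13.4 kb in rescue and 13.3 kb in WT.

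At BCL2L1 the 3 lists placed their promoter summits at different bases. The deletion summit lay 214 bp before a listed start (31724177 on chromosome 20, 15.9), the rescue summit 154 bp after it (31723809, 9.44), and the WT summit 161 bp before it (31724124, 4.54). At 368 bp from the deletion summit to the rescue summit, this was the widest of the sites held by all lists, and at a matching distance of 100 bp the rescue summit would stand alone. A second WT summit, 206 bp before another listed start (31723074, 2.27), had no summit of the other lists within 500 bp. The sequences around these promoter summits lie at chr20:31724163-31724192, chr20:31724110-31724139 and chr20:31723060-31723089 on the minus strand, with the summit base in capitals.
BCL2L1, deletion summit: caaggcgatgcttctTctatatataaactg
BCL2L1, WT summit: tgactgatgagtgacTgactgactgactga
BCL2L1, second WT summit: aaccccattgagaagTccctttagggtttc

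The death receptor gene FAS had 1 site 3792 bp before the nearest listed start in deletion, also inside ACTA2, with 19.3 in deletion, 6.35 in rescue and 4.95 in WT. PERP, a membrane protein of cell junctions, had 2 shared sites upstream, with 7.48 and 20.5 in deletion, 3.3 and 18.1 in rescue, and 9.68 and 15.6 in WT. A PERP summit 1678 bp below the gene was in WT alone (138086827 on chromosome 6, 3.41).

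TNFRSF10B, encoding a receptor of the death ligand TRAIL, had 3 deletion summits, 1 rescue summit and 0 WT summits. The highest value at any member was here, in deletion at 23019548 on chromosome 8 (49.5, higher than 98.9% of the list), with a rescue summit at 23019487 (14.1). It lay 585 bp below the gene and inside the neighbouring gene RHOBTB2, so the site cannot be given to 1 of the 2 genes by position. The other deletion summits at TNFRSF10B were weak up sites with values of 3.77 and 2.2, the first also inside RHOBTB2 and the second 204 bp above the gene.

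APAF1, the scaffold of the apoptosome, had 4 deletion, 3 rescue and 2 WT summits. Sites 8959 and 80825 bp into the gene were in deletion (11.7 and 3.55) and rescue (6.78 and 3.32) and not in WT. A site in all lists had 7.83 in deletion, 6.38 in rescue and 7.63 in WT. Above the gene, inside ANKS1B, the deletion and WT lists placed a summit on the same base, 98743541 on chromosome 12 (5.77 and 9.78), where rescue had none. CASP9, which the apoptosome activates, had 1 summit, in deletion alone (15501697 on chromosome 1, 10.5), the highest of the deletion-only sites. XIAP, an inhibitor of caspases, had 0 deletion summits, 1 rescue summit (123884849 on chromosome X, 2.45) and 1 WT summit (123884908, 7.05). It is the other member with a down region. BIRC5, encoding survivin, had none, and the nearest summit, 25.5 kb outside it, stood on the same base in all 3 lists (78251164 on chromosome 17) with 46.5 in deletion, 20.6 in rescue and 16.9 in WT.

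CASP8, the initiator caspase of the extrinsic path, had 4 deletion, 2 rescue and 1 WT summits. The summit 965 bp before its start was in deletion (201232498 on chromosome 2, 5.85) and rescue (201232530, 11.3) and not in WT. A second pair, in deletion at 201257797 (6.32) and rescue at 201258180 (3.28), lay at a start inside the gene. The site 2963 bp after the first start was in deletion (9.4) and WT (2.85), and a weak summit was in deletion alone (2.92). CASP8 begins 269.8 kb from ORC2, the gene edited in the deletion clone, which is nearer than the other members on chromosome 2. What this closeness contributes was not tested. The 30 bases around the deletion summit at the inner start lie at chr2:201257785-201257814 on the plus strand, with the summit base in capitals.
CASP8, deletion summit: tgctgaggtttgAtcaaggcaaagggaaac

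Summits gained without ORC2, meaning deletion summits with no WT summit within 500 bp, were present at 16 of the 36 members, 44.4% against 40% of all protein-coding genes. The authors' deposited up list had a region at 11 members, 30.6% against 30.7%. Members therefore held up regions as often as protein-coding genes did. The 11 were BAK1, BCL2, BCL2L1, BCL2L11, CASP8, CASP9, MDM2, SESN2, TIGAR, TNFRSF10B and XPC. Up regions were found at 51.6% of protein-coding genes with windows over 100 kb and at 21.9% of those under 50 kb. The 15 members with windows of 50 to 100 kb held an up region in 8 cases, 53.3% against 32.9% of 4645 genes of that class. Of the 5 with longer windows 1 did, and of the 16 with shorter ones 2. All 15 deletion-only sites were in the up list, and 0 of the 10 sites held by deletion and rescue were. At the members the up list thus followed the summit lists and is not separate evidence. The median −log10 q of the deletion-only sites was 3.55, against 13.4 in deletion at the sites of all 3 lists.

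Lost summits, present in WT with no deletion summit within 500 bp, were found at 4 members, ZMAT3, BCL2L1, PERP and XIAP. That is 11.1% of the members against 8.2% of all protein-coding genes. Down regions were at 2 members, 5.56% against 1.72%. They covered the 2 sites held by rescue and WT and neither of the 2 sites in WT alone. All 4 lost summits had WT values between 2.27 and 7.05. With lists of equal length, 7 members had a gained and 8 a lost site. Gained sites were then at AEN, APAF1, BID, CASP9, SFN, TNFRSF10B and XPC, and lost sites at APAF1, BCL2L1, DDB2, PERP, PPM1D, TP63, XIAP and ZMAT3. At that length 17.2% of protein-coding genes had a gained and 18.5% a lost site.

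**Figure D3:**
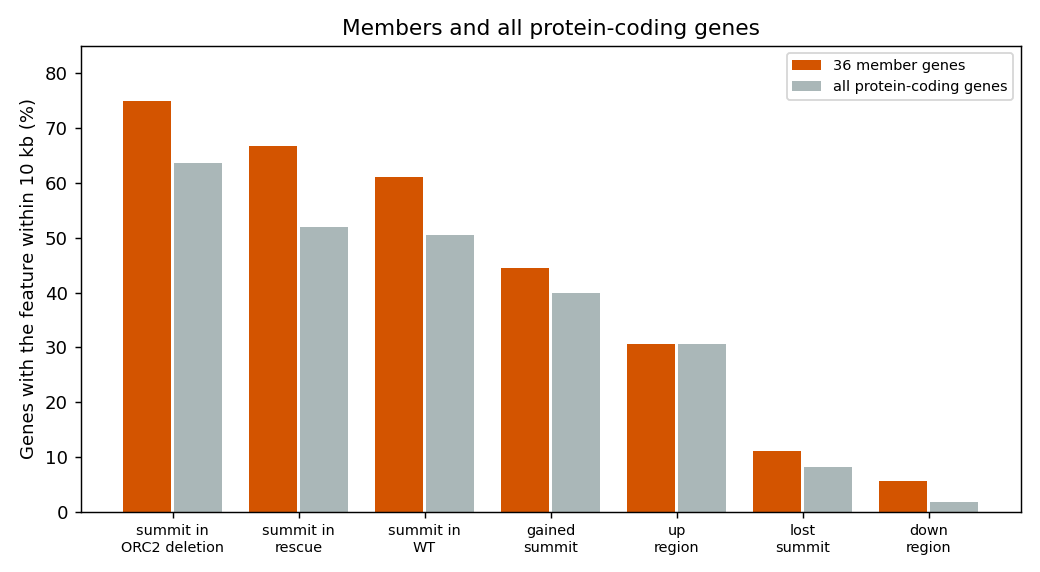
Percent of the 36 members (left bar of each pair) and of 19970 protein-coding genes (right bar) that had each feature inside the gene or within 10 kb. Up regions stood at 30.6% of the members and 30.7% of protein-coding genes.

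Most WT sites of the members were called in the other genotypes as well. Of 38 WT summits, 34 had a deletion summit within 500 bp, 89.5% (95% Wilson interval 75.9 to 95.8), the same share as the 89.5% of the whole WT list. A rescue summit was found for 31, 81.6% (66.6 to 90.8), against 76.2%. Of the 25 gained deletion summits at members, 10 had a rescue summit, 40% (23.4 to 59.3), against 32.3% of the whole list. These 10 lay at TP73, SFN, AEN, BID, BCL2L1, TNFRSF10B, APAF1 and CASP8. Both genotypes are set against the same WT list, so this share does not measure how far rescue returned to WT. The intervals cover counting error only.

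Member sites lay mostly away from gene starts. Of 61 sites at the 30 members with a start in the RefSeq promoter table, 12 were within 1 kb of one, and 36 of the 65 sites were inside the gene. A deletion summit within 1 kb of a start was found at 8 of the 30 members, 26.7% against 18.8% of 15811 protein-coding genes with a start. In rescue it was 7 members, 23.3% against 10.8%, and in WT 6 members, 20% against 12.2%. These shares are per gene and not matched for starts. The 30 members had 51 listed starts and the 15811 genes 22131, which is more per gene at the members. The start was marked in all 3 lists at SFN, TP53I3, BAK1, BCL2L1 and SESN1. It was marked in deletion alone at MDM2 and TIGAR, in deletion and rescue at CASP8, and in rescue and WT at ZMAT3.

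**Figure D4:**
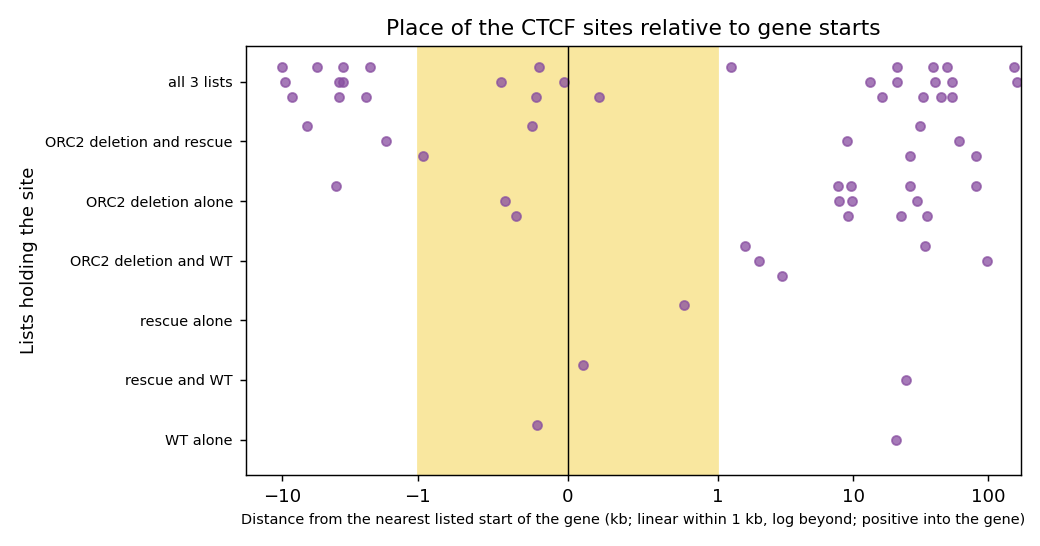
Distance of 61 member sites from the nearest listed start of their gene, in kb, positive into the gene and negative before it, by the lists that hold the site (rows). The scale is linear within 1 kb, shaded, and logarithmic beyond, and 12 sites lie in the shaded part.

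The 51 promoter sequences of these 30 members were searched on both strands for a CTCF core motif, CCA, any 2 bases, AG, any 2 bases, then GGC. It was present in 2 of the 51, 3.92% against 2.52% of 22131 promoters of protein-coding genes. The match at BCL2L1 lay in the promoter of the second WT summit, at chr20:31722937-31722966, and that at TP73 at chr1:3652275-3652304, with no CTCF summit in that promoter in any list. The matches are shown because they are the only ones, with the motif in capitals on the strand of the gene, minus for BCL2L1 and plus for TP73. A strict form of the core of the p53 response element, CATG, any 6 bases, then CATG, was present in 0 of the 51, against 0.276% of the 22131. No other spelling or spacing was searched. With so low a share, 0 of 51 does not show that response elements are absent. The search covered 250 bases before to 50 after each start.
BCL2L1, motif: tcctggctcCCAGTAGGAGGCggagagcca
TP73, motif: cgacgcgcgCCAAAAGGCGGCgggaaggag

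Other genes of the pathway were followed through lists of 40 further p53 targets, 29 further apoptosis genes and 20 regulators of p53. Gained summits stood at 20 of the p53 targets, 50% against the 40% of all protein-coding genes, at 9 of the apoptosis genes (31%) and at 9 of the regulators (45%). Lost summits stood at 3 of the p53 targets (7.5%, against 8.2%), 4 of the apoptosis genes (13.8%) and 1 of the regulators (5%). Up regions were at 16 of the p53 targets (40%, against 30.7%), 6 of the apoptosis genes (20.7%) and 8 of the regulators (40%). Down regions were at 2 of the p53 targets (5%, against 1.72%), 2 of the apoptosis genes (6.9%) and 0 of the regulators. These shares are not matched for window length. Among all protein-coding genes a gained summit stood at 29.6% with windows under 50 kb and at 63.9% with windows over 100 kb.

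Among the further p53 targets, the highest up sites in the deletion list were at TP53I11 (12.2), NINJ1, a membrane protein of plasma membrane rupture (11.7), ASCC3, a helicase (10.7), and KITLG, the ligand of KIT (9.11). A down site was at POLH, a translesion polymerase (3.09 in WT). Among apoptosis genes, ENDOG, a mitochondrial nuclease, had an up site 109 bp before its start (13.5), and CASP10 and CFLAR, neighbours of CASP8, shared one at 201177578 on chromosome 2 (12.5). RIPK1, a kinase of death receptor signalling, had one of 5.86. FADD (3.86 in WT) and TRADD (2.58 in WT), adaptors of death receptors, had down sites. Regulators with the highest up sites were HIPK2, a kinase of p53 (14.9), USP7, a deubiquitinase of MDM2 (9.84), TP53BP1, an adaptor at DNA breaks (8.8) and CHEK1, a checkpoint kinase, 49 bp before a start (8.6).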

How the data were processed

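Reads were aligned and peaks called by the authors. Per the submitters' processing notes the build was hg38 and the tools were MACS2 (no version stated), SAMtools 1.12, Bowtie2 2.2.9 and FastQC 0.11.5. How peaks were called and whether IgG served as control is not given in the sources used here. Each deposited summit is 1 base with its −log10 q value. The values were used as deposited, and whether the authors scaled them between lists is not known. The CTCF lists and the deletion and WT IgG lists name no replicate and were taken as pools of the 2 libraries of a group. The rescue IgG list belongs to the 1 rescue IgG library. The deposited up and down lists hold regions without values.

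Summits were put on 1-based coordinates, matched within 500 bp, and assigned to genes of a RefSeq table (GRCh38.p14) within 10 kb. RefSeq promoters, which also gave the listed starts, matched 30 of the 36 members. Matching and counting were tested on simulated data. Shares have 95% Wilson intervals. No test was made between genotypes. Windows, matching distances, thresholds on −log10 q, lists of equal length and removal of IgG sites were tried as alternatives.

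Sites were named for members with an up or down region, with presence that differed between lists, with a summit within 1 kb of a gene end, or among the 10 with the highest value. From each further gene list at most 4 genes per direction were named by value. The site of 1 such gene is not reported here. Sites of other members were added after their values were seen. The members and lists were chosen with earlier results of these data known. The work used matplotlib 3.10.9, SciPy 1.17.1, pandas 2.3.3, NumPy 2.4.6 and Python 3.11.15.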

Additional observations from a re-analysis of the deposited data

How the results depend on the processing

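Of the values recomputed under alternatives, 50 stayed within 1.5 times the reported count or ratio, or within the reported share's 95% interval, and 26 did not. With the gene body alone, member summits numbered 32 in deletion, 24 in rescue and 20 in WT, and 7 members held an up region (19.4%, against 19.6% of protein-coding genes). With 2 kb around it, WT had 25. With 50 kb, the counts were 130, 94 and 83 in deletion, rescue and WT. There 27 members had a gained site (75%, against 65%) and 22 an up region (61.1%, against 53.3%). At a −log10 q of at least 5, WT had 23 member summits and 2 members had a lost site (5.56%, against 3.69%). Values were not scaled between lists here, so the same cutoff can keep different shares of each list. At a −log10 q of 10 or more, deletion, rescue and WT had 24, 12 and 9 member summits, a deletion over WT ratio of 2.67, against 2.76 over the whole lists. A summit was then at 9 members in rescue (25%, against 20.1%) and 9 in WT (25%, against 16.9%), and 0 members had a lost site (against 1.58%). With lists of equal length, deletion had 36 member summits, deletion over WT was 0.947, and 7 members had a gained site (19.4%, against 17.2%) and 8 a lost one (22.2%, against 18.5%). Matching within 100 bp gave 11 members with a lost site (30.6%, against 26.6%). At that distance 71.1% of member WT summits had a deletion summit (60.6% over the list) and 57.9% a rescue summit (51.1%). The cause of these shifts was not tested, apart from the construction of each alternative. No paired analysis was possible because the lists are 1 per genotype and give no replicate number, so no replicate could be left out either. Sequencing depth is unknown, so an absent summit does not show absent binding.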
